A study of Homo sapiens with 6 samples.

Results

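The genes described here encode the machinery of macroautophagy, the lysosome and the vacuolar proton pump (V-ATPase) in RS4;11 cells. RS4;11 is a human B-lymphoblastic leukemia line in long use, derived from precursor B cells. A list of 50 such genes was matched by symbol to the deposited table of normalized CPM, that is, reads of a gene scaled for the depth of its library. All 50 were among its 11911 genes, and all 50 passed the filter of at least 1 CPM in at least 3 libraries. They comprise 28 genes of the autophagosome, 20 genes of the lysosome and V-ATPase, and the transcription factors TFEB and TFE3. By the sample titles, 3 libraries were made with and 3 without asparagine. RNA of the cells without asparagine was collected 16 hours after the amino acid was withdrawn, a time the titles do not give. The labels name no genetic change and no further agent. The same asparagine-free medium with dialyzed serum is entered for every sample, so the serum of the cells with asparagine is not certain, and the column names of the table do not settle whether asparaginase was used. The cells without asparagine are called depleted. The labels do not describe separate cultures, so the spread behind the p-values is that among these libraries and may be only technical.

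Macroautophagy encloses cytoplasm in a double membrane, the autophagosome, which fuses with the lysosome, where hydrolases degrade the contents and amino acids are returned to the cell. The ULK1 kinase complex starts the process, a phosphatidylinositol 3-kinase complex marks the site, lipid transfer proteins feed the membrane, and ubiquitin-like conjugation attaches proteins of the ATG8 family (LC3 and GABARAP) to it. Cargo receptors tether ubiquitin-marked or other cargo to ATG8 proteins. Lysosomes work at low pH, which the V-ATPase maintains with a membrane sector, V0, and a cytoplasmic ATPase sector, V1. TFEB and TFE3 move to the nucleus when amino acids are scarce and bind E-box sequences near many autophagy and lysosome genes. Lymphoblasts of this leukemia commonly depend on asparagine from outside the cell.

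The libraries held between 29971364 and 51127073 reads in the table, and 3 reads corresponded to 0.0598 to 0.0920 CPM. Depleted library 1 stood apart from the other 2 depleted libraries. Its log2(CPM + 1) values correlated with theirs at Pearson r of 0.940 and 0.933 across genes, against 0.996 between depleted libraries 2 and 3. In depleted libraries 2 and 3, changes also followed the GC content of transcripts (Spearman rho -0.62 and -0.64 across 11344 genes), while in depleted library 1 rho was -0.06. Genes are not independent replicates, and these coefficients are descriptions. Results are therefore also given without depleted library 1 and after a correction that removes the GC trend within each library. All 10 B-cell precursor markers were in the table, with summed levels of 3829 to 4092 CPM with asparagine and 3010 to 3917 CPM in depleted cells, and all 4 markers of KMT2A-rearranged leukemia were present. None of 5 T cell markers was in the table. Of 5 monocyte and macrophage markers CSF1R was present (30.4 to 31.4 CPM with asparagine, 16.0 to 28.9 depleted), and of 5 fibroblast and epithelial markers COL1A1 was present (3.61 to 4.47 and 0.938 to 2.35 CPM). In such bulk RNA, fewer cells of a type and less RNA per cell cannot be told apart.

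Of the genes that passed the test, those of the autophagosome were mostly higher in depleted cells and those of the lysosome mostly lower. Of the 8 V-ATPase genes 2 rose and 1 fell (25% and 12.5%), with a median log2 fold change of 0.16. By limma with Benjamini-Hochberg adjustment over all 11892 genes tested, 14 of 28 autophagosome genes rose and 3 fell, while 3 of 20 lysosome and V-ATPase genes rose and 8 fell. Over all 50 genes, 18 rose (36%) and 11 fell (22%), against 25.1% and 26.2% of all genes tested. The share that rose was thus 50% on the autophagosome side and 15% on the lysosome side, and the share that fell was 10.7% and 40.0%. The median log2 fold change, depleted minus with asparagine, was 0.38 for the autophagosome and -0.19 for the lysosome and V-ATPase, beside 0.01 over all genes. By depleted library, these medians were 0.26, 0.43 and 0.46 for the autophagosome and -0.05, -0.35 and -0.51 for the lysosome and V-ATPase. Summed levels of the 28 autophagosome genes went from 1781 ± 36.6 CPM (SD, n = 3) to 2233 ± 34.9. A large part of that rise was MAP1LC3B alone, which went from 48.1 ± 2.82 to 268 ± 56.9 CPM. Summed levels of the 20 lysosome and V-ATPase genes went from 1544 ± 64.0 to 1389 ± 92.9. The difference between the sides is described by these counts and medians and was not tested as such. Values of the arms did not overlap for 21 genes that were higher and 11 that were lower, against 30.2% and 30.8% of all genes tested. A change of at least 2-fold that passed the test was found in 5 of the 50 genes that rose, all of the autophagosome, and in ULK1 and CTSA, which fell. By the same measure, 1278 of all 11892 genes tested rose and 1341 fell.

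**Figure D1:**
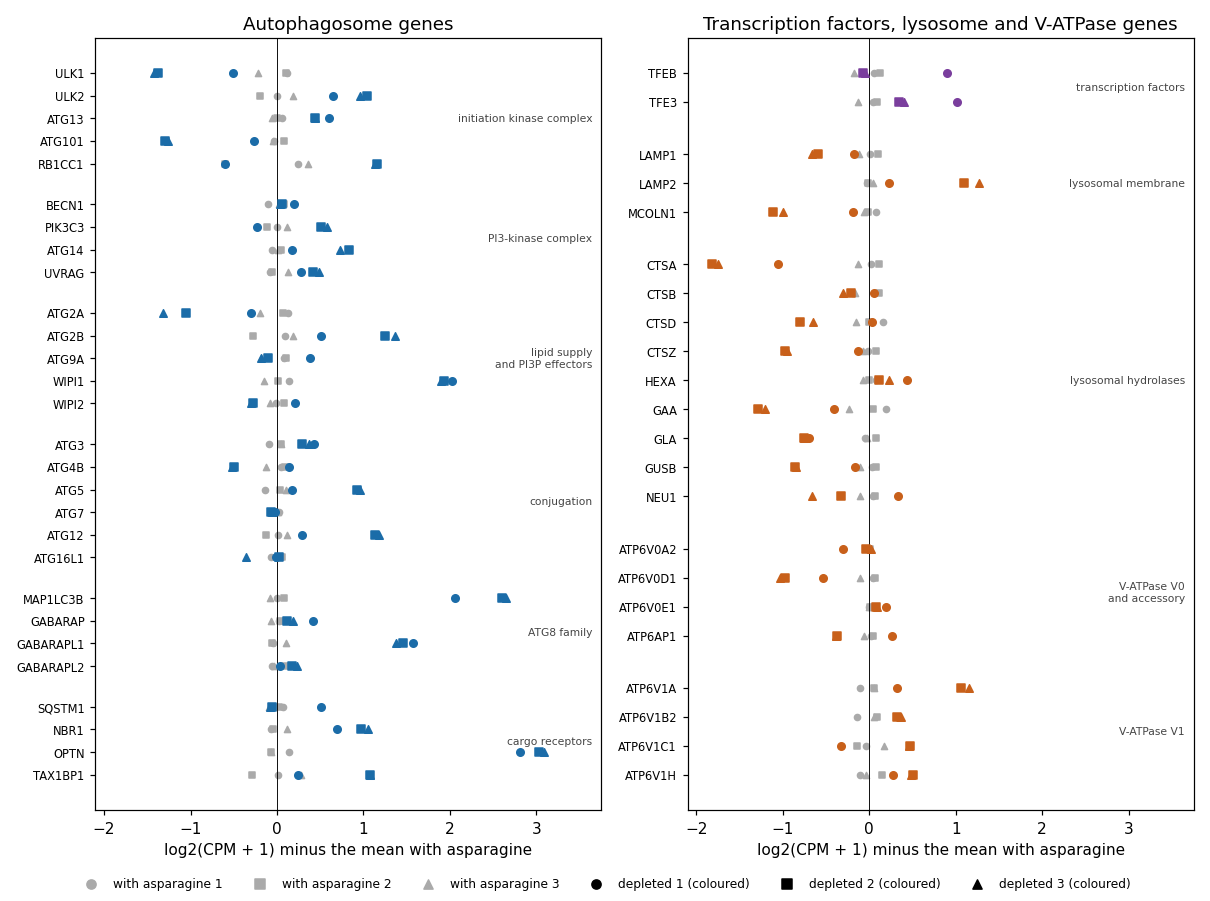
Each row is a gene and each point a library, plotted as log2(CPM + 1) minus the gene's mean over the 3 libraries with asparagine (gray), with depleted libraries in color and circles, squares and triangles for libraries 1, 2 and 3. The left panel holds the 28 autophagosome genes, of which 14 rose, and the right panel the 2 transcription factors and the 20 lysosome and V-ATPase genes, of which 8 fell.

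The number of calls depended on which libraries were kept. Without depleted library 1, 23 of the 50 genes rose and 17 fell, against 40.5% and 41.3% of all genes. The 18 genes that rose and the 11 that fell with all libraries were all among them. Also called were RB1CC1, PIK3C3, GABARAPL2, ATP6V1B2 and ATP6V1C1, which were higher. WIPI2, ATG4B, CTSB, CTSD, NEU1 and ATP6AP1 were called too, and were lower. Autophagosome genes then numbered 17 higher and 5 lower, and lysosome and V-ATPase genes 5 higher and 12 lower. Leaving out library 1, 2 or 3 with asparagine left 8, 6 and 7 of the 50 higher and 3, 3 and 5 lower, where 14.8%, 14.5% and 17.4% of all genes were higher and 15.5%, 15.3% and 18.3% lower. Leaving out depleted library 2 or 3 left 7 and 8 higher and 4 lower in each case, where 16% and 17.3% of all genes were higher and 16.6% and 18.1% lower. Calls over the whole table thus fell as well. The genes ULK2, WIPI1, MAP1LC3B, GABARAPL1, NBR1 and OPTN rose, and CTSA, GLA and ATP6V0D1 fell, under each of 21 alternative settings, the libraries left out in turn included. The calls of the other 20 genes were lost under at least 1 of these settings.

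The factors that govern lysosomal genes had differing values between depleted libraries. TFEB (chr6:41683978-41736259, GRCh38) is activated by nutrient loss. It had 50.2, 52.9 and 42.8 CPM with asparagine and 91.2, 45.9 and 46.9 CPM in depleted libraries 1, 2 and 3. Depleted library 1 was thus the one high value, and the other 2 lay within the range with asparagine. The log2 difference was 0.26 ± 0.28 (SE, 95% interval -0.40 to 0.91, limma adjusted p = 0.454). TFE3 (chrX:49028726-49043486), its close relative, had 36.8, 38.1 and 32.6 CPM with asparagine and 73.5, 45.7 and 47.6 CPM depleted. Every depleted library lay above every library with asparagine, and TFE3 rose (log2 fold change 0.59 ± 0.20, limma adjusted p = 0.0469). That call was lost when any library other than depleted library 1 was left out (limma adjusted p 0.056 to 0.142), and without depleted library 1 the log2 fold change was 0.37 (limma adjusted p = 0.00392). Transcripts of TFEB and TFE3 are rich in GC, 62.5% and 59.8%. Both rose once GC content was corrected for, TFEB by 0.87 (limma adjusted p = 4.11e-05) and TFE3 by 1.09 (limma adjusted p = 6.17e-06) on the log2 scale.

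Among other genes that act on TFEB and TFE3, 9 of 16 rose and 3 fell (56.3% and 18.8%, against 25.1% and 26.2% of all genes), with a median log2 fold change of 0.55. With GC content corrected for, 7 were higher and 4 lower (43.8% and 25%, against 35.2% and 34.3% of all genes), and the median was 0.23. FNIP1 and FLCN, whose proteins form a complex that controls RagC and thereby the retention of TFEB in the cytoplasm, went from 24.4 ± 5.87 to 109 ± 41.7 CPM and from 36 ± 4.09 to 90.8 ± 17.3 CPM (n = 3). These are 4.47-fold and 2.52-fold higher means, with log2 fold changes of 2.06 and 1.30 (limma adjusted p = 0.00346 and 0.00158). RRAGC, which encodes RagC itself, rose from 22.2 ± 3.49 to 54.5 ± 12.6 CPM (limma adjusted p = 0.00394). PPP3CB, a catalytic subunit of calcineurin, the phosphatase that acts on TFEB, rose from 52.5 ± 2.36 to 121.9 ± 37.7 CPM (limma adjusted p = 0.00892). These 4 genes remained higher with GC content corrected for, with log2 fold changes of 1.46, 1.91, 0.95 and 0.71.

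The initiation complex changed in opposite directions within itself. ULK1 (chr12:131894651-131923167), the kinase that starts autophagy, had 184, 182 and 145 CPM with asparagine and 119, 64.5 and 62.7 CPM depleted. All depleted libraries lay below those with asparagine, library 1 the least so. ULK1 fell 2.08-fold in its mean, from 170.3 ± 22.2 to 81.9 ± 31.7 CPM (log2 fold change -1.10 ± 0.26, limma adjusted p = 0.0133). Without library 1 or 2 with asparagine its adjusted p was 0.0561 and 0.0550. The GC-corrected log2 fold change was -0.43 (limma adjusted p = 0.00037). ATG101 (chr12:52069246-52077494), which stabilizes ATG13 in the complex, had 119.9, 131 and 119.5 CPM with asparagine and 103, 49.7 and 51.0 CPM depleted. It fell by 0.94 ± 0.28 on the log2 scale (limma adjusted p = 0.0293), a call that was lost when any library but depleted library 1 was left out (limma adjusted p 0.0716 to 0.0962), and its GC-corrected log2 fold change was -0.43. The scaffold ATG13 moved the other way, with 101, 96.6 and 93.0 CPM with asparagine and 147, 132 and 131 CPM depleted (log2 fold change 0.50 ± 0.11, limma adjusted p = 0.0114). Without library 2 or 3 with asparagine its adjusted p was 0.0593 and 0.0584, and its GC-corrected value was 0.69. ULK2, the second kinase of this kind, had 6.07, 5.18 and 7.05 CPM with asparagine and 10.1, 13.5 and 12.7 CPM depleted. It rose 1.98-fold in its mean (log2 fold change 0.88 ± 0.17, limma adjusted p = 0.00603) and remained higher after the GC correction (1.09). RB1CC1, the FIP200 scaffold, had 92.4, 50.8 and 100.3 CPM with asparagine and 50.8, 174 and 173 CPM depleted. Its groups overlapped and it did not pass the test (0.56 ± 0.51, limma adjusted p = 0.381), but without depleted library 1 it did (1.15, limma adjusted p = 0.000906).

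Of the 4 genes of the phosphatidylinositol 3-kinase complex, 2 rose (50%, against 25.1% of all genes tested). ATG14 (chr14:55366392-55411858), which directs the complex to autophagosome formation, had 13.3, 14.4 and 14.1 CPM with asparagine and 15.8, 25.7 and 23.8 CPM depleted, with no overlap (0.58 ± 0.20, limma adjusted p = 0.0434). UVRAG (chr11:75815167-76143195), the alternative partner used later in the pathway, had 23, 23.5 and 26.8 CPM with asparagine and 29.8, 32.8 and 34.5 CPM depleted (0.39 ± 0.13, limma adjusted p = 0.0426). These calls were lost for both genes when any library but depleted library 1 was left out (limma adjusted p 0.0775 to 0.159), and that of UVRAG also after the GC correction (0.16, limma adjusted p = 0.0782). ATG14 was then at 0.27 (limma adjusted p = 0.0392). The catalytic subunit PIK3C3 (VPS34) and BECN1 did not pass the test, with log2 differences of 0.29 (limma adjusted p = 0.317) and 0.10 (limma adjusted p = 0.526). The direction of PIK3C3 turned with the GC correction (-0.27, limma adjusted p = 0.00274), and without depleted library 1 it passed the test at 0.54.

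Of the 5 genes that supply lipid or bind phosphatidylinositol 3-phosphate, WIPI1 and ATG2B rose and ATG2A fell. These shares were 40% and 20%, against 25.1% and 26.2% of all genes tested. WIPI1 (chr17:68420948-68457513) encodes a protein that recognizes that lipid on the forming membrane. It had 8.41, 7.67 and 6.70 CPM with asparagine and 33.9, 31.6 and 30.9 CPM depleted. The 3 depleted libraries, library 1 included, were close to each other and far from those with asparagine, a 4.23-fold higher mean (log2 fold change 1.95 ± 0.14, limma adjusted p = 0.000205). After the GC correction the value was 1.89. Its paralog WIPI2, which recruits the conjugation machinery, had a higher level per kilobase of exon with asparagine (11.3 ± 0.640 CPM per kb against 2.23 ± 0.252 for WIPI1), and in depleted cells the paralogs were at 10.4 ± 2.20 and 9.45 ± 0.461. WIPI2 did not pass the test (-0.13, limma adjusted p = 0.544), and its direction turned after the GC correction (0.20, limma adjusted p = 0.0101). Without depleted library 1 and uncorrected, WIPI2 was lower (-0.29, limma adjusted p = 0.0055). The lipid transfer proteins ATG2A and ATG2B, which have overlapping roles, differed in direction. ATG2A had 76.7, 73.4 and 60.8 CPM with asparagine and 56.6, 33.3 and 27.4 CPM depleted (-0.89, limma adjusted p = 0.0301), a call that was lost without any library but depleted library 1 (limma adjusted p 0.0546 to 0.104). ATG2B (chr14:96279202-96363870) had 54.5, 41.9 and 58.4 CPM with asparagine and 72.9, 123 and 133 CPM depleted (1.04 ± 0.26, limma adjusted p = 0.0148), and its adjusted p was 0.0623 and 0.0560 without library 2 with asparagine or depleted library 2. Transcript GC content was 64.0% for ATG2A and 44.2% for ATG2B, and after the GC correction the log2 fold changes were -0.22 and 0.71, each past the threshold. ATG9A, the lipid scramblase of the seed vesicles, did not pass the test (0.03, limma adjusted p = 0.891) but did after the GC correction (0.49, limma adjusted p = 0.000354).

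Of the 6 conjugation genes, ATG3, ATG5 and ATG12 rose (50%, against 25.1% of all genes tested) and none fell (26.2% of all genes). ATG12 (chr5:115828200-115841858), the ubiquitin-like protein that is joined to ATG5, had 43.1, 39.1 and 46.5 CPM with asparagine and 52.5, 94.9 and 98.5 CPM depleted (0.87 ± 0.25, limma adjusted p = 0.0264). ATG5 (chr6:106045423-106325791) had 36.2, 40.8 and 43.0 CPM with asparagine and 45.1, 76.7 and 78.3 CPM depleted (0.69 ± 0.23, limma adjusted p = 0.0427). In both genes depleted library 1 lay just above the values with asparagine and the other 2 far above. ATG12 and ATG5 have the lowest transcript GC contents of the 50 genes, 38.0% and 38.6%. After the GC correction their log2 fold changes were 0.23 (limma adjusted p = 0.0121) and 0.08 (limma adjusted p = 0.529). ATG3, the enzyme that passes ATG8 proteins to lipid, went from 74.1 ± 4.30 to 95.7 ± 4.95 CPM (0.36, limma adjusted p = 0.0360), with 0.28 after the GC correction. Each of these 3 calls was lost when any library but depleted library 1 was left out (limma adjusted p 0.0590 to 0.150). ATG4B, ATG7 and ATG16L1 did not pass the test, with log2 differences of -0.29, -0.05 and -0.11. Without depleted library 1, ATG4B was lower (-0.50, limma adjusted p = 0.000253).

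The ATG8 family held the second largest rise of the 50 genes. MAP1LC3B (chr16:87383995-87404779), which encodes LC3B, had 48.2, 50.8 and 45.2 CPM with asparagine and 203, 296 and 306 CPM depleted. Each depleted library was far above those with asparagine, library 1 less than the others, and the mean was 5.58-fold higher (log2 fold change 2.43 ± 0.18, limma adjusted p = 0.000247). GABARAPL1 (chr12:10212458-10223130), of the GABARAP branch, had 4.89, 4.83 and 5.52 CPM with asparagine and 17.0, 15.7 and 14.7 CPM depleted, a 3.11-fold higher mean (1.47 ± 0.13, limma adjusted p = 0.000435). The GC-corrected values were 2.17 and 1.56. GABARAP, with 92.5, 93.4 and 86.7 CPM with asparagine and 121, 98.4 and 103 CPM depleted, did not pass the test although its groups did not overlap (0.24, 95% interval -0.07 to 0.54, limma adjusted p = 0.156). GABARAPL2 did not pass it either (0.15, limma adjusted p = 0.321). Per kilobase of exon, the order with asparagine was GABARAP at 40.1 ± 1.61 CPM per kb (SD, n = 3), GABARAPL2 at 20.5 ± 1.12, MAP1LC3B at 9.05 ± 0.530 and GABARAPL1 at 1.24 ± 0.0938. In depleted cells, MAP1LC3B at 50.5 ± 10.7 CPM per kb and GABARAP at 47.5 ± 5.30 differed by less than their spread, ahead of GABARAPL2 at 22.8 ± 1.61 and GABARAPL1 at 3.87 ± 0.286. The near-identical copy MAP1LC3B2 went from 12.4 ± 0.931 to 34.8 ± 11.6 CPM, and how reads shared between such copies were counted is not given in the sources used here.

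**Figure D2:**
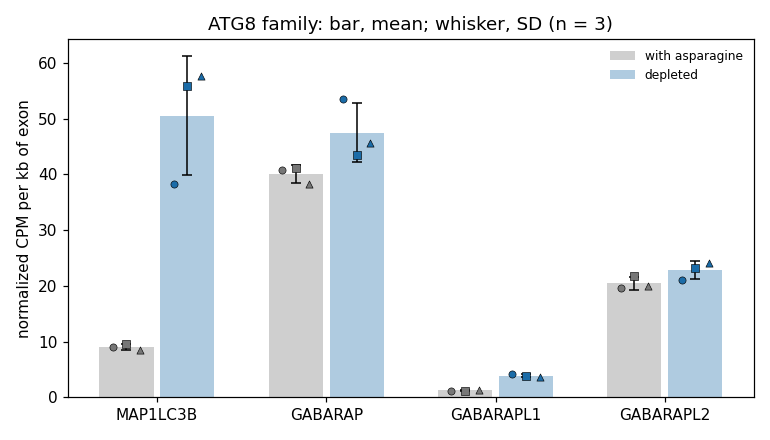
Normalized CPM per kilobase of exon for the 4 ATG8 genes in cells with asparagine (gray) and depleted cells (blue), as means with SD over 3 libraries and points for libraries 1 (circle), 2 (square) and 3 (triangle). MAP1LC3B went from 9.05 to 50.5, near GABARAP (47.5), while GABARAPL2 went from 20.5 to 22.8 and did not pass the test. Lengths are of all annotated exons, so levels compared between genes depend on the isoforms annotated.

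Of the 4 cargo receptors, 3 rose (75%, against 25.1% of all genes tested). OPTN (chr10:13099449-13138308), the receptor optineurin that links damaged mitochondria and bacteria to LC3, had the largest log2 fold change of the 50 genes. It had 1.63, 1.27 and 1.28 CPM with asparagine and 15.8, 18.4 and 19.2 CPM depleted, which rests on 46 to 718 reads per library. The mean was 12.8-fold higher (2.98 ± 0.14, limma adjusted p = 5.17e-05), and its GC-corrected value was 2.68. NBR1 (chr17:43170481-43211689), a receptor for peroxisomes and protein aggregates, had 36, 36.4 and 40.9 CPM with asparagine and 61.5, 75.0 and 79.3 CPM depleted, again with no overlap (0.90 ± 0.14, limma adjusted p = 0.00298, GC-corrected 0.77). TAX1BP1 had 27.7, 22.4 and 33.6 CPM with asparagine and 32.9, 59.3 and 59.4 CPM depleted. Its groups overlapped, as library 3 with asparagine lay above depleted library 1, yet it passed the test (0.80, limma adjusted p = 0.0426), and the call was lost without any library but depleted library 1 (limma adjusted p 0.0573 to 0.144). The GC-corrected log2 fold change of TAX1BP1 was 0.26 (limma adjusted p = 0.0227). SQSTM1 (chr5:179806398-179838078), the classical receptor p62, did not pass the test. It had 213, 207 and 189 CPM with asparagine and 288, 194 and 191 CPM depleted, so depleted library 1 was high and the other 2 lay in the range with asparagine (0.12, 95% interval -0.31 to 0.55, limma adjusted p = 0.589). Its transcripts hold 61.5% GC, and after the GC correction SQSTM1 was higher (0.70, limma adjusted p = 5.88e-05). Summed levels of the 4 receptors were 270.0 ± 7.14 CPM with asparagine and 365 ± 29 CPM depleted.

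**Figure D3:**
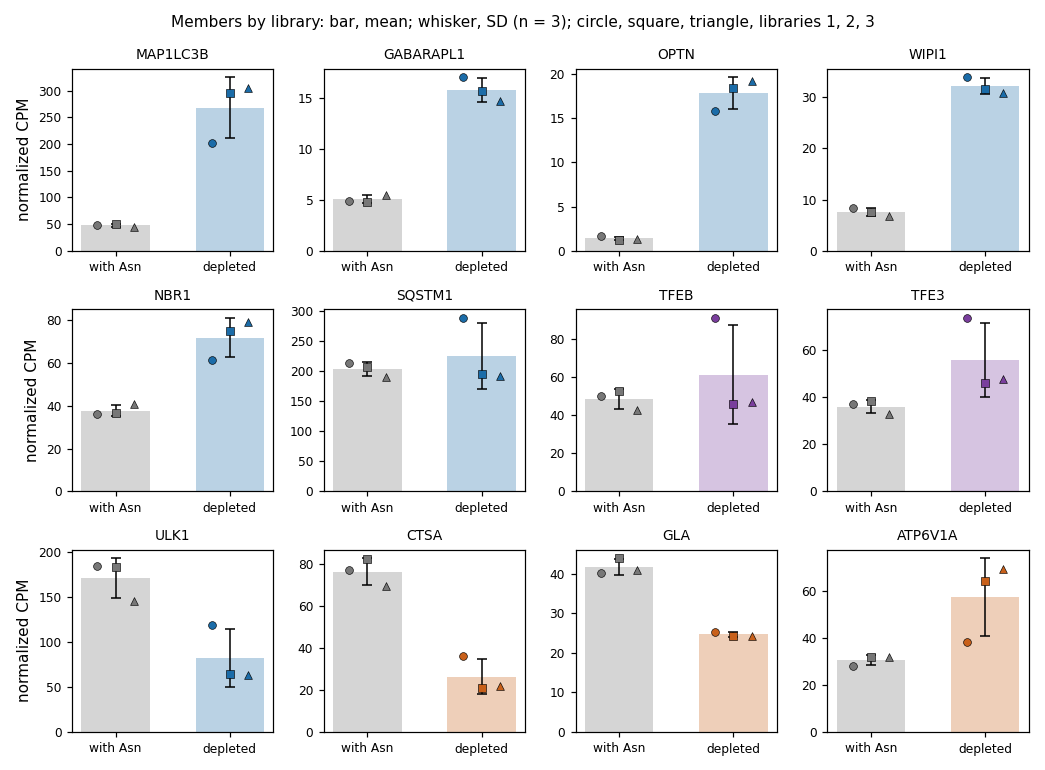
Normalized CPM of 12 genes in cells with asparagine and in depleted cells, as bars for the mean, whiskers for the SD over 3 libraries and points for libraries 1 (circle), 2 (square) and 3 (triangle), each panel with its own axis from 0. The arms do not overlap in any panel except those of TFEB and SQSTM1, which are high in depleted library 1 alone.

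Further autophagosome genes outside the 50, in a list chosen with earlier results of these data known, also leaned upward. Of 31 such genes in the table, 11 rose and 2 fell (35.5% and 6.45%, against 25.1% and 26.2% of all genes), with a median log2 fold change of 0.31. CCPG1, a receptor for parts of the endoplasmic reticulum, went from 4.30 ± 0.901 to 51.7 ± 23.6 CPM (3.20, limma adjusted p = 0.00113), and FAM134B, another, went from 4.86 ± 0.497 to 40.1 ± 9.48 CPM (2.78, limma adjusted p = 0.000233). TMEM41B, a scramblase needed for autophagosome formation, and WDFY3, a scaffold for aggregates, rose 3.03-fold and 2.85-fold in their means (limma adjusted p = 0.00277 and 0.00136). The 2 genes that fell, named after their values were seen, were TEX264, a further receptor for the endoplasmic reticulum, from 103.8 ± 6.44 to 62.9 ± 24.8 CPM (-0.78, limma adjusted p = 0.0401), and VAMP8, a fusion protein of the lysosome, from 197 ± 8.68 to 100.3 ± 30.0 CPM (-1.0, limma adjusted p = 0.00769).

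The lysosomal membrane genes divided between the directions. LAMP2 (chrX:120427827-120469365), a glycoprotein needed for fusion and chaperone-mediated autophagy, had 84.3, 85.0 and 88.3 CPM with asparagine and 101, 185 and 209 CPM depleted (0.87 ± 0.27, limma adjusted p = 0.0324). LAMP1 (chr13:113297241-113323672), its relative, had 186, 198 and 170.3 CPM with asparagine and 163, 122 and 117 CPM depleted (-0.48 ± 0.16, limma adjusted p = 0.0435). MCOLN1 (chr19:7522626-7534009), the lysosomal calcium channel that activates calcineurin, had 17.9, 16.7 and 16.1 CPM with asparagine and 14.7, 7.30 and 7.96 CPM depleted (-0.77 ± 0.25, limma adjusted p = 0.0401). Per kilobase of exon, LAMP1 was above LAMP2 with asparagine (32.2 ± 2.44 against 15.5 ± 0.382 CPM per kb), and in depleted cells they were at 23.3 ± 4.47 and 29.9 ± 10.3. In these 3 genes the arms did not overlap, and depleted library 1 lay nearest to the values with asparagine. All 3 calls were lost when any library but depleted library 1 was left out (limma adjusted p 0.0772 to 0.152). LAMP2 and LAMP1 kept their directions and calls after the GC correction (0.32 and -0.18, limma adjusted p = 0.0136 and 0.0186), and MCOLN1 did not pass the threshold (-0.18, limma adjusted p = 0.112).

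Of the 9 hydrolase genes, CTSA, CTSZ, GAA, GLA and GUSB fell (55.6%, against 26.2% of all genes tested). None rose, against 25.1% of all genes, and the median log2 fold change was -0.63. The median was -0.13, -0.80 and -0.76 in depleted libraries 1, 2 and 3. With GC content corrected for it was -0.24, with 5 genes lower and 2 higher (CTSB and HEXA). These are 55.6% and 22.2%, against 34.3% and 35.2% of all genes with a GC value. Without depleted library 1 and uncorrected, 8 of the 9 hydrolase genes were lower (88.9%, against 41.3% of all genes). None was then higher, against 40.5% of all genes, and the median was -0.75. Their summed level went from 687 ± 49.5 CPM with asparagine to 637, 413 and 425 CPM in depleted libraries 1, 2 and 3. CTSA (chr20:45890144-45898820), cathepsin A, which also protects other lysosomal enzymes, had 77.3, 82.3 and 69.6 CPM with asparagine and 36.1, 20.9 and 22 CPM depleted. It fell 2.90-fold in its mean (-1.54 ± 0.22, limma adjusted p = 0.00207), and its GC-corrected value was -1.15 (limma adjusted p = 1.91e-05). GLA, alpha-galactosidase A, had 40.3, 44.0 and 40.9 CPM with asparagine and 25.4, 24.4 and 24.3 CPM depleted, and its depleted libraries were nearly alike, library 1 included (-0.74 ± 0.12, limma adjusted p = 0.00298). Its transcripts hold 48.9% GC, the least of the 11 genes that fell, and the GC correction moved it to -0.80. GAA (chr17:80101556-80119879), the acid alpha-glucosidase that degrades glycogen, had 65.5, 58.5 and 48.2 CPM with asparagine and 42.6, 22.7 and 24.2 CPM depleted (-0.97 ± 0.26, limma adjusted p = 0.0198). Its call was lost without library 1 or 2 with asparagine or depleted library 2 or 3 (limma adjusted p 0.0631 to 0.0803), and after the GC correction its value was -0.25 (limma adjusted p = 0.0252). CTSZ, a carboxypeptidase, and GUSB, beta-glucuronidase, fell by 0.69 and 0.63 (limma adjusted p = 0.0484 and 0.0403), calls that were lost without any library but depleted library 1 (limma adjusted p 0.0796 to 0.152), and their GC-corrected values were -0.24 and -0.28.

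The cathepsins CTSD and CTSB, the main aspartyl and a main cysteine protease of the lysosome, did not pass the test. CTSD (chr11:1752752-1764573) had 153, 137 and 123 CPM with asparagine and 141, 78.2 and 87.4 CPM depleted, with depleted library 1 among the values with asparagine and the other 2 below them (-0.47, 95% interval -1.02 to 0.08, limma adjusted p = 0.127). Without depleted library 1 it passed the test (-0.72, limma adjusted p = 6.23e-05), and after the GC correction with all libraries it was at 0.18 (limma adjusted p = 0.0615). CTSB was at -0.15 (limma adjusted p = 0.431), and its direction turned after the GC correction (0.29, limma adjusted p = 0.0253). HEXA, a subunit of beta-hexosaminidase, and NEU1, a sialidase, were at 0.26 and -0.22 (limma adjusted p = 0.135 and 0.490). Without depleted library 1 and uncorrected, CTSB and NEU1 were lower (-0.26 and -0.49, limma adjusted p = 0.0419 and 0.00239).

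The windows before the start sites of lysosomal genes are shown because many hold the letters of the E-box that TFEB and TFE3 are known to bind. CACGTG, which reads the same on both strands, was found in 7 of 12 lysosome and V-ATPase genes with a RefSeq window (ATP6V0D1, CTSA, CTSD, GAA, LAMP1, MCOLN1 and NEU1) and in 2 of 26 autophagosome genes (ATG14 and ATG3). It was in 7.26% of all 35116 windows of the same length, from 250 bases before to 50 bases after a start, and in 13.0% of 8985 genes of the table with a window. The longer TCACGTGA, which contains it, was in 5 of the 12 and 1 of the 26, against 0.980% of windows and 2.34% of the table's genes. Windows were matched for 40 of the 50 genes, and 7 of these have several. The sequences run 5′ to 3′ on the strand of the gene in GRCh38.p14, with CACGTG in capitals. The 250 bases before the start of CTSA (chr20:45891085-45891334, + strand), GAA (chr17:80101331-80101580, + strand), ATP6V0D1 (chr16:67481158-67481407, - strand) and MCOLN1 (chr19:7522374-7522623, + strand) are followed by 60-base stretches of LAMP1 (chr13:113297187-113297246, + strand) and ATG3 (chr3:112561949-112562008, - strand), which were chosen after their values were seen.
CTSA: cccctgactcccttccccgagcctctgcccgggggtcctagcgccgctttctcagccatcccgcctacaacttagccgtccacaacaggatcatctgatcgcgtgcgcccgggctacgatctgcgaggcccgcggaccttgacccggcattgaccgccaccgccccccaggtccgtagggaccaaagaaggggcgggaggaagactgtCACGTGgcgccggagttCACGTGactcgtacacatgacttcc
GAA: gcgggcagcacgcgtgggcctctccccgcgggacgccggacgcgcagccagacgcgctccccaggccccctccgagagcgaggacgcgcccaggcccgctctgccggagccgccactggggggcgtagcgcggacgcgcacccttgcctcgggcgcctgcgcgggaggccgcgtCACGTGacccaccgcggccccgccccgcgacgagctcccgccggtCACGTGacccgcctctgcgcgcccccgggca
ATP6V0D1: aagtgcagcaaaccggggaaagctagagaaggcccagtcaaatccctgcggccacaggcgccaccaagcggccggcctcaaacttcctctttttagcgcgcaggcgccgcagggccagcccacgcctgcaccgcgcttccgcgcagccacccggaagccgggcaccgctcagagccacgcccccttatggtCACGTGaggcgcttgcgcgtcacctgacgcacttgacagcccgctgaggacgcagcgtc
MCOLN1: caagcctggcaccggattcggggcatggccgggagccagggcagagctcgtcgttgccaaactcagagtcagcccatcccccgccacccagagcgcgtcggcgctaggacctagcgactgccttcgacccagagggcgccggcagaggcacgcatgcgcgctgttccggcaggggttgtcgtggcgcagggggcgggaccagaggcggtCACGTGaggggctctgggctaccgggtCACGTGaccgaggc
LAMP1: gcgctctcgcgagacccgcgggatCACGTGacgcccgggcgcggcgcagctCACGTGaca
ATG3: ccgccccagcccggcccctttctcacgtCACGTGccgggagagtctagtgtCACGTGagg

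In CTSA the motif begins 42 and 25 bases before the start, in GAA 76 and 31, in MCOLN1 41 and 14, and in ATP6V0D1 59. Of the 9 genes with CACGTG, ATG14 and ATG3 rose, ATP6V0D1, CTSA, GAA, LAMP1 and MCOLN1 fell, and CTSD and NEU1 did not pass the test. Their median log2 fold change was -0.48. That of the 31 genes with a window and no such motif was 0.15, of which 12 rose and 6 fell (38.7% and 19.4%, against 25.1% and 26.2% of all genes). The comparison largely sets the lysosome side against the autophagosome, as 7 of the 9 genes are lysosome or V-ATPase genes. Lysosome and V-ATPase genes with a window and no motif, CTSZ, GLA, GUSB, ATP6V0A2 and ATP6AP1, were at -0.69, -0.74, -0.63, -0.10 and -0.16. LAMP2, ATP6V1A and ATP6V1H, which rose, had no window. With GC content corrected for, the 9 genes had a median of -0.18, with 2 higher and 4 lower. Of all genes with a GC value, 35.2% were then higher and 34.3% lower. Outside the 50 genes, 1155 genes of the table with CACGTG held 21.5% that rose and 35% that fell (median -0.19), and 204 genes with TCACGTGA held 26% and 23.5% (median 0.11). TGATGNAA, searched on both strands as the element of ATF4, was in none of the 40 genes and in 2.62% of the table's genes with a window. A match describes these letters in this window and does not show that a factor was bound there.

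Of the 8 V-ATPase genes among the 50, ATP6V1A and ATP6V1H of the V1 sector rose and ATP6V0D1 of the V0 sector fell. These shares, 25% and 12.5%, were at or below those of all genes (25.1% and 26.2%). ATP6V1A (chr3:113747019-113812056), the catalytic subunit, had 28.0, 31.6 and 31.6 CPM with asparagine and 38.2, 64.3 and 69.0 CPM depleted, a 1.88-fold higher mean (0.85 ± 0.23, limma adjusted p = 0.0222). ATP6V1H, a regulatory subunit, had 41.7, 49.7 and 43.7 CPM with asparagine and 54.3, 64.1 and 63.2 CPM depleted (0.42 ± 0.13, limma adjusted p = 0.0374). Both calls were lost when any library but depleted library 1 was left out (limma adjusted p 0.0592 to 0.146), and after the GC correction ATP6V1A was at 0.72 (limma adjusted p = 0.00861) and ATP6V1H at 0.14 (limma adjusted p = 0.193). ATP6V1B2, the other part of the ATP-binding site, was at 0.34 (limma adjusted p = 0.0527) although its arms did not overlap. ATP6V1C1, a stalk subunit, was at 0.20 (limma adjusted p = 0.496), and its direction turned after the GC correction (-0.37, limma adjusted p = 0.000629). Without depleted library 1 and uncorrected, ATP6V1B2 and ATP6V1C1 were higher (0.35 and 0.47, limma adjusted p = 0.00615 and 0.00112).

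ATP6V0D1 (chr16:67438014-67481237), which joins the sectors, had 88.4, 90.3 and 79.6 CPM with asparagine and 58.9, 43.3 and 41.6 CPM depleted. Each depleted library lay below those with asparagine (-0.85 ± 0.17, limma adjusted p = 0.00637), and its GC-corrected value was -0.47 (limma adjusted p = 0.000177). ATP6AP1, an accessory protein of assembly, had 142, 145 and 134 CPM with asparagine and 168, 109 and 108 CPM depleted, so depleted library 1 was above and the other 2 below. It did not pass the test (-0.16 ± 0.19, limma adjusted p = 0.495), and after the GC correction it was higher (0.34, limma adjusted p = 0.000555). Without depleted library 1 and uncorrected, ATP6AP1 was lower (-0.38, limma adjusted p = 0.000639). ATP6V0A2 and ATP6V0E1 were at -0.10 and 0.12 (limma adjusted p = 0.521 and 0.368). Summed over the 8 V-ATPase genes, levels were 569 ± 10.0 CPM with asparagine and 588 ± 9.17 CPM depleted.

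Among 20 further V-ATPase genes, 5 rose and 5 fell (25% each, median 0.01), in both directions within each sector. Of the V1 genes ATP6V1F fell (-0.84, limma adjusted p = 0.0350) and ATP6V1G2 rose (0.97, limma adjusted p = 0.00219), both named after their values were seen. TCIRG1 and ATP6V0A1, alternative forms of the large V0 subunit, moved in opposite directions. TCIRG1 fell from 304 ± 32.9 to 82.7 ± 31.8 CPM, 3.67-fold (-1.92, limma adjusted p = 0.0016), and ATP6V0A1 rose from 4.93 ± 0.476 to 18.2 ± 1.13 CPM, 3.70-fold (1.70, limma adjusted p = 0.000284). The rabconnectin genes DMXL1 and DMXL2, whose proteins promote assembly of the pump, rose by 1.40 and 1.11 (limma adjusted p = 0.0280 and 0.0338). After the GC correction these 4 kept their directions (-1.21, 1.68, 0.80 and 0.61). Among 62 further lysosome genes, 14 rose and 14 fell (22.6% each, against 25.1% and 26.2% of all genes), with a median of -0.12. With all libraries and uncorrected, neither further list held more genes that fell than rose, unlike the 20 lysosome and V-ATPase genes above. Without depleted library 1, the further lysosome genes held 26 higher and 31 lower (41.9% and 50%, against 40.5% and 41.3% of all genes). The further V-ATPase genes then held 8 and 7 (40% and 35%). After the GC correction these lists held 18 higher and 21 lower (29.5% and 34.4%) and 5 higher and 6 lower (25% and 30%). Of all genes with a GC value, 35.2% were then higher and 34.3% lower. GRN, the lysosomal protein progranulin, fell from 226 ± 22 to 89.7 ± 28.2 CPM (-1.36, limma adjusted p = 0.00323), and NAGPA, which helps to finish the mannose 6-phosphate signal of hydrolases, fell from 19.7 ± 1.15 to 6.32 ± 1.25 CPM (-1.52, limma adjusted p = 0.000765). SMPD1, acid sphingomyelinase, rose from 1.43 ± 0.338 to 7.69 ± 1.88 CPM (1.82, limma adjusted p = 0.000791), and OSTM1, a partner of the lysosomal chloride transporter, rose from 18.5 ± 1.45 to 54.3 ± 18.3 CPM (1.44, limma adjusted p = 0.00544).

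The direction of change went along with GC content, which differed between the sides. Median transcript GC was 48.6% for the autophagosome genes and 55.4% for the lysosome and V-ATPase genes. The 18 genes that rose had a median of 45.6% (38.0% to 59.8%), the 11 that fell 58.3% (48.9% to 65.3%), and the 21 that did not pass 51.2%. Over the 50 genes, Spearman's rho between GC content and the change was -0.12, -0.77 and -0.76 in depleted libraries 1 to 3, given as descriptions of genes that share libraries.

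**Figure D4:**
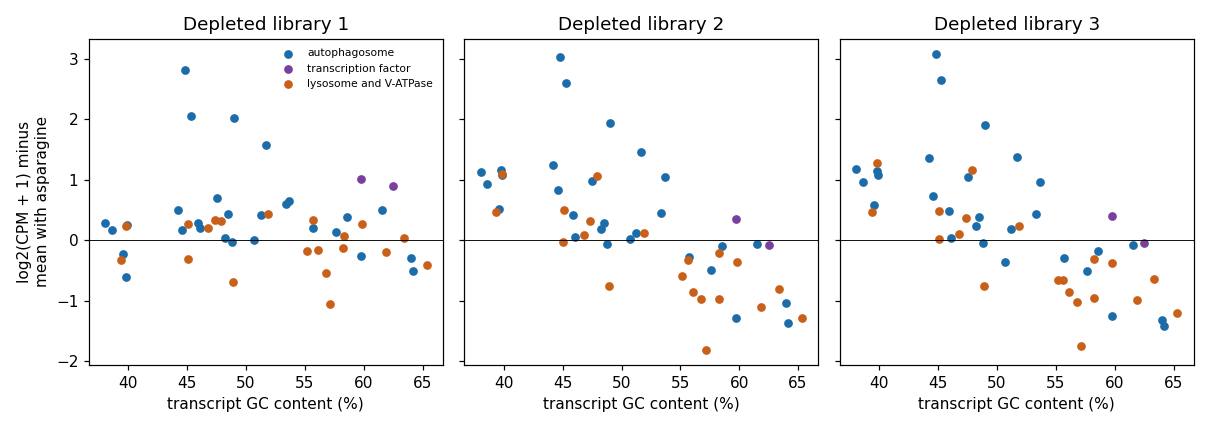
Change of each of the 50 genes in depleted libraries 1, 2 and 3 (log2(CPM + 1) minus the mean with asparagine) against transcript GC content in percent, colored by autophagosome, transcription factor or lysosome and V-ATPase. The points slope downward in libraries 2 and 3 (rho -0.77 and -0.76) and much less in library 1 (-0.12).

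After the GC correction, 23 of the 50 genes were higher and 13 lower, against 35.2% and 34.3% of 11344 genes with a GC value. The autophagosome held 16 higher and 4 lower of 28, and the lysosome and V-ATPase 5 higher and 9 lower of 20, with medians of 0.24 and -0.12. Of the 18 genes that had risen, 15 remained higher, and ATG5, UVRAG and ATP6V1H did not. Of the 11 that had fallen, 10 remained lower, and MCOLN1 did not. With all libraries kept, the 8 genes that passed only after the correction and were higher were ATG9A, WIPI2, GABARAP, SQSTM1, TFEB, CTSB, HEXA and ATP6AP1. PIK3C3, ATP6V0A2 and ATP6V1C1 passed only then and were lower. Uncorrected and without depleted library 1, WIPI2, CTSB and ATP6AP1 were instead lower, and PIK3C3 and ATP6V1C1 higher. None of the 29 genes called before the correction was called in the opposite direction after it.

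**Figure D5:**
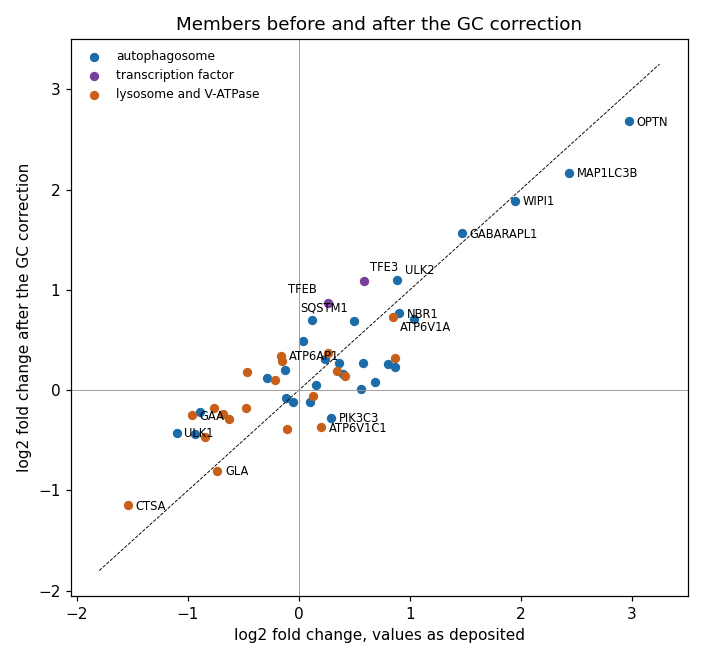
Log2 fold change of each of the 50 genes after the GC correction against that from the values as deposited, with the line of equality dashed and genes colored by autophagosome, transcription factor or lysosome and V-ATPase. MAP1LC3B (2.43 and 2.17) and OPTN (2.98 and 2.68) lie at the top right, CTSA (-1.54 and -1.15) at the bottom left, and SQSTM1, TFEB and TFE3 lie well above the line.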

How the data were processed

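Total RNA of 6 RS4;11 samples was sequenced, 3 with asparagine and 3 depleted. The authors deposited a table of normalized CPM values, a signal scaled for depth, in which each value was a whole multiple of 1 read's worth within a tolerance of 1e-06. Column totals ran from 918783 to 1031234, so the scaling was not by the total alone. Genes that stayed under 0.54 CPM in every library are not in the table. The reads were handled with FastQC, STAR, featureCounts (Subread) and GRCh38, per the submitters' processing notes. For versions, annotation, strand setting and scaling method the sources used here give nothing, so reads of a gene and an antisense partner cannot be told apart.

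Values were analysed as log2(CPM + 1) in R 4.3.3 with limma 3.58.1, by a linear model of the group alone with an intensity trend. Two-sided p-values were adjusted by Benjamini-Hochberg, at a threshold of 0.05, over the 11892 genes that reached 1 CPM in 3 or more libraries. A value written as "-fold" divides the means in CPM. Changes on the log2 scale are of log2(CPM + 1), which understates those of low genes. GC content (11363 genes, 95.4%), exon length and gene positions came from GENCODE 29 on GRCh38, and promoter windows from RefSeq GRCh38.p14. Exon length was that of all annotated exons of a gene together, not of the transcript expressed. Levels per kilobase compared between genes therefore depend on the isoforms annotated. The GC correction removed a lowess trend (span 0.3) from each library's deviations from the gene mean. The model was tested on simulated data. The members and lists were chosen with earlier results of these data known. Genes named with full values were a panel of 10 (TFEB, TFE3, SQSTM1, MAP1LC3B, GABARAPL1, ULK1, LAMP1, CTSD, MCOLN1 and ATP6V1A), up to 2 per role by the size of their change where the higher group reached 5 CPM, and up to 4 per further list. The others among the 50 are named as members of counts, and MAP1LC3B2, TEX264, VAMP8, ATP6V1F, ATP6V1G2, CSF1R and COL1A1 were named after their values were seen. Alternatives were other pseudocounts, filters, scalings and moderation, voom weights on the recovered reads, the replicate number as a block, libraries left out and the GC correction. Same-numbered libraries did not deviate together in all 3 pairs, so the numbers were not treated as pairs.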

Additional observations from a re-analysis of the deposited data

How the results depend on the processing

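Of the 29 genes that changed, 9 kept the call under all 21 alternatives (6 higher, 3 lower), and 8 of the 50 genes had a called value of opposite sign under at least 1 of them, none of which had passed the test as reported. Leaving out 1 library at a time gave 1728 to 4812 genes higher and 1814 to 4913 lower over the whole table, 6 to 23 of the 50 genes higher and 3 to 17 lower, 6 to 17 autophagosome genes higher and 0 to 5 lower, and 0 to 5 lysosome and V-ATPase genes higher and 3 to 12 lower. The medians ran from 0.31 to 0.45 for the autophagosome and from -0.43 to -0.12 for the lysosome and V-ATPase. The highest counts came without depleted library 1, although each of these fits leaves out 1 library. Without depleted libraries 2 and 3, the lone depleted library is assumed to vary like the others. There, 5 of the 50 genes were lower, 1 of them an autophagosome gene, lysosome and V-ATPase genes numbered 1 higher and 4 lower, and the autophagosome median was 0.26. The GC correction gave 5 lysosome and V-ATPase genes higher and an autophagosome median of 0.24, also with the replicate block. Together with leaving out depleted library 1 it gave 4487 genes higher over the table, 5 autophagosome genes lower, 6 lysosome and V-ATPase genes higher and an autophagosome median of 0.24. Quantile normalization gave 5 lysosome and V-ATPase genes lower, and the share of all genes called under that setting is not given here. The cause of these shifts was not tested. Log2 fold changes of opposite sign came from the GC correction alone, with depleted library 1 left out, and with the replicate block, in that order, for PIK3C3 (-0.27, -0.29 and -0.27), WIPI2 (0.20, 0.18 and 0.20), CTSB (0.29, 0.39 and 0.29), ATP6AP1 (0.34, 0.35 and 0.34) and ATP6V1C1 (-0.37, -0.38 and -0.37). With the GC correction and depleted library 1 left out, they also came for BECN1 (-0.26), CTSD (0.20) and ATP6V0E1 (-0.16).

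With the replicate number as a block, 2824 genes were higher and 2989 lower over the table, 15 and 10 of the 50, 12 and 3 of the autophagosome, and 2 and 7 of the lysosome and V-ATPase. The calls of UVRAG, ATG3, LAMP1 and ATP6V1H were lost (limma adjusted p = 0.0847, 0.0936, 0.0543 and 0.0645). Same-numbered libraries had deviations that correlated at 0.08, -0.65 and 0.69, and library 2 with asparagine correlated best with depleted library 1 (0.66). A planned count model was not run, and voom weights on the recovered reads were used instead, with 18 of the 50 genes higher and 11 lower. Shares over all genes with voom weights are not given here. At 3 reads the floor was 0.0598 to 0.0920 CPM, under every value of the 50 genes, of which OPTN with asparagine rested on the fewest reads (46).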

Other observations

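MITF, the third member of the TFEB family in this table, was at 1.02 ± 0.183 CPM with asparagine and 2.46 ± 0.758 depleted (log2 fold change 0.75, limma adjusted p = 0.0179). LAPTM5, a lysosomal membrane protein of blood cells, rose from 706 ± 9.72 to 1010 ± 12.9 CPM (0.52, limma adjusted p = 0.00452), with 0.55 after the GC correction. Both were picked after their values were seen.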
